A study of Mus musculus with 88 samples.

Results

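The immediate early genes described here were Fos, Fosb, Junb, Egr1, Egr2, Egr4, Arc, Npas4, Nr4a1 and Dusp1, 10 genes taken from a list of symbols that was matched to the Ensembl identifiers of the deposited tables. All 10 were in the table of ComBat-corrected abundances, which held 21552 genes. The table of expected counts and the table of uncorrected transcript abundances (TPM, a level scaled for transcript length and library size) each held 16368 genes, and 9 of the 10 were among them. Egr4 was not in these tables, so its values below are corrected TPM and it was left out of every count test. The other 9 all passed the filter on low values, which kept the 12018 genes that reached 1 TPM in 50% of mice or more.

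The hippocampus of 88 AD-BXD mice was profiled by RNA-seq. These were F1 offspring of B6 (C57BL/6J) females hemizygous for the 5XFAD transgenes and males of the strain named in the label, so mice of 1 strain label and sex were isogenic. The numbered labels are lines of the BXD recombinant inbred panel, and B6 and D2 are the parental strains of that panel. Every mouse carried 5XFAD, a set of human transgenes with familial Alzheimer's disease mutations that a neuronal Thy1 promoter drives, and mice without the transgenes were not analysed here. The mice were 6 months old (32 females and 6 males) or 14 months old (29 females and 21 males), covered 26 strain labels, and formed 51 groups of 1 strain, sex and age. Of these groups, 28 held 2 or more mice (65 mice in all, at most 4 in a group), and the other 23 held 1 mouse. Tissue was collected directly after a contextual fear memory test that followed a day of training with foot shocks, and no mouse without that test was analysed here, so no resting level can be set beside the values. Expected counts summed to 1698144 to 46896813 per mouse with a median of 20029544, and 1 mouse had fewer than 5000000. These sums cover the genes of the table and not the whole library, and the spread between mice of 1 group is that of separate animals. No marker of neurons or of granule, CA1 or CA3 cells that was in the TPM table was at 0 in every mouse. In this bulk tissue fewer responding cells and less RNA per cell cannot be told apart.

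Immediate early genes are transcribed within minutes of neuronal firing, without the need for new protein synthesis. Calcium entry and kinase cascades act on factors that already sit at their promoters, chiefly CREB at cAMP response elements and the serum response factor with its cofactors at CArG boxes. In the hippocampus these genes mark the cells that were active during learning or recall. Fos and Fosb encode AP-1 subunits that pair with JUN proteins, and Junb encodes such a partner. Egr1, Egr2 and Egr4 encode zinc finger transcription factors. Npas4 encodes a bHLH-PAS factor induced selectively by depolarization and calcium entry, and Nr4a1 an orphan nuclear receptor. Arc encodes a postsynaptic protein that acts on AMPA receptor endocytosis, and Dusp1 a phosphatase that inactivates MAP kinases and so limits the signal that induces the family.

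The sequences through which this induction runs were looked for in the 250 bases before each annotated start, because the results below concern how far the genes move together. RefSeq promoter sequences (GRCm38.p6) were matched for 8 of the 10 genes, with 12 start sites, and not for Arc and Egr1. The core of the cAMP response element, TGACG or its reverse complement CGTCA, was present for 8 of these 8 genes and at 10 of the 12 start sites, compared with 19.8% of 27025 genes and 17.8% of 32851 promoters of the same length. The full palindrome TGACGTCA, which contains the core on both strands, was found for Dusp1 alone and in 1.55% of all promoters. A CArG box was found for Egr2 alone, at 4 of its 5 start sites, compared with 1.47% of promoters. Sequence beyond the 250 bases was not searched, so the other genes may hold such boxes farther away. The windows of start sites 3 to 5 of Egr2 overlap and hold the same box and the same cores, so these are counted 3 times among the start sites. The AP-1 motif TGANTCA was in none of the 12, compared with 6.75%. The EGR motif GCGNGGGCG, searched on both strands, was in those of Fosb and Nr4a1, compared with 4.70%. Here 5 sequences are shown because they carry the different arrangements, in the orientation of the gene, with TGACG or CGTCA (with the full palindrome in Dusp1) and the CArG box in capitals. They are the windows chr12:85473640-85473889 (plus strand, Fos), chr10:67537619-67537868 (plus strand, Egr2, start site 3 of 5), chr19:4989972-4990221 (minus strand, Npas4), chr15:101266596-101266845 (plus strand, Nr4a1) and chr17:26508473-26508722 (minus strand, Dusp1).
Fos: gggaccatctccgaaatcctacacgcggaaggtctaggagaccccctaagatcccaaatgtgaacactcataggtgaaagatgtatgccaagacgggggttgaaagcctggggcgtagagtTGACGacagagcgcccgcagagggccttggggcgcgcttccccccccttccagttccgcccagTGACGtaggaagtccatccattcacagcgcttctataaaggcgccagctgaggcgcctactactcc
Egr2: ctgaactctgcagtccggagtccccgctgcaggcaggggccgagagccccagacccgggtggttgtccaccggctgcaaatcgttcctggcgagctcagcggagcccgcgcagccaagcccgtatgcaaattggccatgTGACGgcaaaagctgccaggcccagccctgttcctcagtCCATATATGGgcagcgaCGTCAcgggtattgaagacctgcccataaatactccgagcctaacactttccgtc
Npas4: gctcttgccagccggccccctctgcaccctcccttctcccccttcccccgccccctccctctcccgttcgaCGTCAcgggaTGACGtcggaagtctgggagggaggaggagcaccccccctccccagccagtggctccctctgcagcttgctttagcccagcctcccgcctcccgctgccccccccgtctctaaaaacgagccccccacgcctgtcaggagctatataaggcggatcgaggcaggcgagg
Nr4a1: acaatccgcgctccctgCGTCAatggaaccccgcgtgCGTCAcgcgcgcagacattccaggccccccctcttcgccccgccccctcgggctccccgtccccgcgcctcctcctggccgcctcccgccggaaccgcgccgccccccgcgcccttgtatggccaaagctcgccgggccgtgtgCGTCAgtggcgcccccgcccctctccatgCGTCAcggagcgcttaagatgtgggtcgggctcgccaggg
Dusp1: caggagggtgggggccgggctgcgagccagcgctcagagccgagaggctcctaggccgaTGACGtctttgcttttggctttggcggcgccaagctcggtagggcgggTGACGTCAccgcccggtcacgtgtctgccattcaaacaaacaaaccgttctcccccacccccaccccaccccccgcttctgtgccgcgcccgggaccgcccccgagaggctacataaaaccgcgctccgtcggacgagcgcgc
Fos and Npas4 each held the core 2 times, Nr4a1 4 times and Dusp1 3 times, and the Egr2 window held a CArG box between 2 cores. A match of letters is a description and does not show that a factor binds there.

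All 9 genes with uncorrected TPM were detected in the hippocampus of all 88 mice, with a several-fold range. Arc was the most abundant, at 55.4 TPM in the lowest mouse, 157.1 in the median and 303.8 in the highest. Egr1 had 36.5, 93.4 and 174.8 TPM in the lowest, median and highest mouse, Junb 48.2, 90.4 and 137.9, and Nr4a1 26.5, 63.0 and 106.0. Egr1 and Junb thus had closely similar medians whose ranges overlapped over most of their length, below Arc and above Nr4a1.

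The other members were lower. Fos had 6.00 TPM in the lowest mouse, 29.8 in the median and 48.8 in the highest, and Dusp1 had 8.83, 25.3 and 37.4. Npas4 had 2.52, 9.75 and 16.1 TPM, Fosb 2.80, 8.77 and 13.4, and Egr2 0.856, 5.20 and 11.9. Fos and Dusp1 were neighbours in this order with overlapping ranges, as were Npas4 and Fosb, and Egr2 was the least abundant. Egr4 had 5.77, 27.99 and 53.1 corrected TPM, which is not on the same scale.

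**Figure D1:**
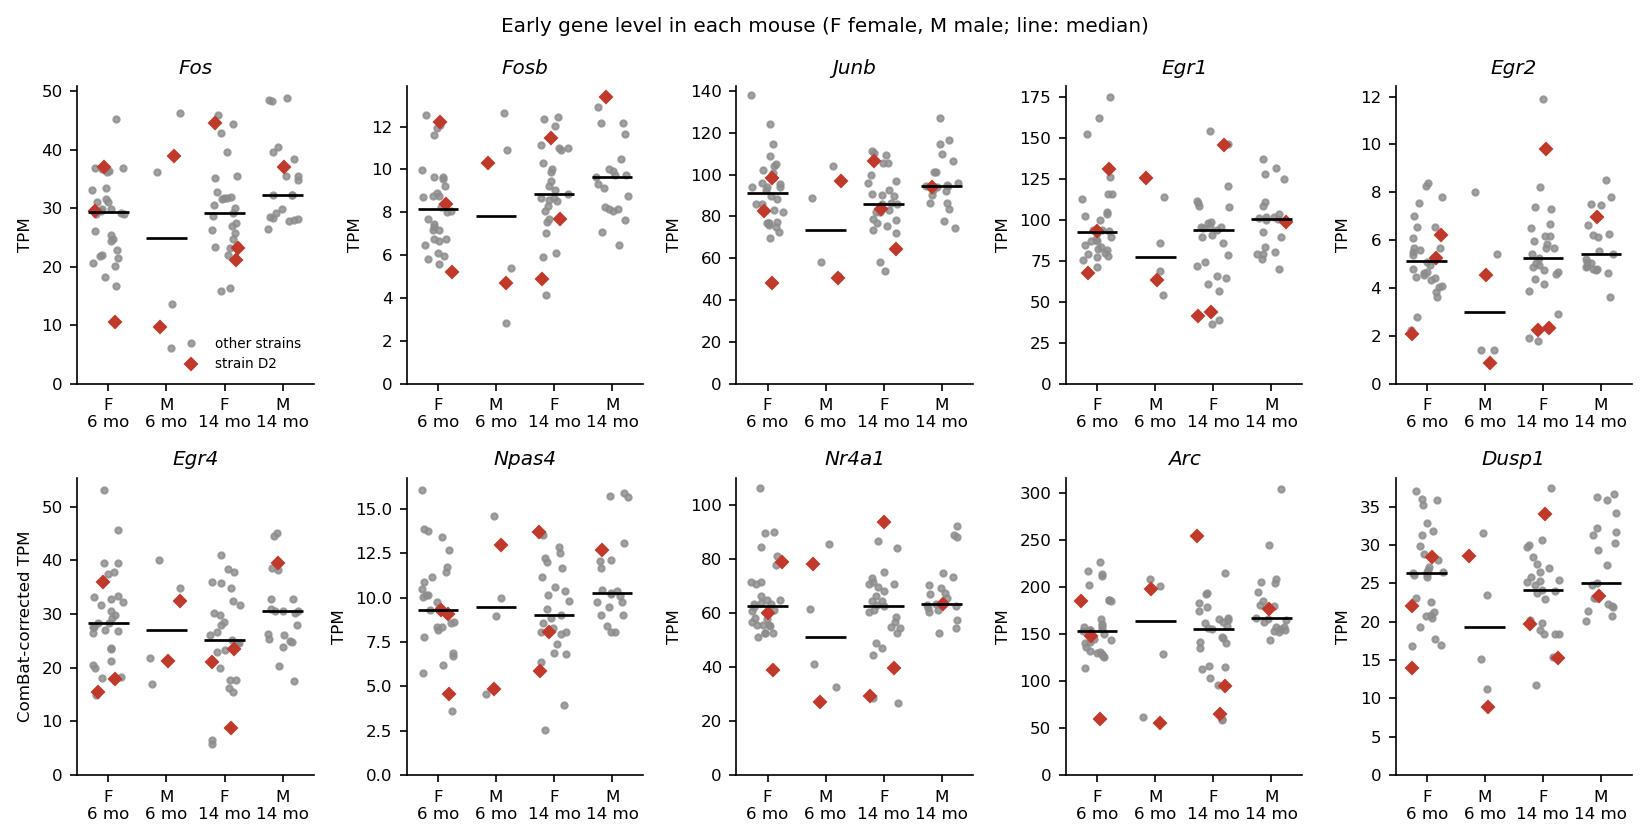
Level of each immediate early gene in each of 88 mice, in TPM (Egr4 in ComBat-corrected TPM), by sex and age in months; each point is 1 mouse, red diamonds are strain D2 and lines are medians. The D2 mice lie at both ends of the range, for example Fos at 9.60 and 38.9 TPM in the 2 males at 6 months.

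The same few groups held the extremes of most genes. Group means were ranked over the 51 groups, each as 1 value. A female of strain 22 at 14 months and a male of strain B6 at 6 months, both single mice, were among the lowest 5 groups for 10 of 10 genes. The 2 females of strain 75 at 14 months were among the lowest 5 for 9 genes, and a single male of strain 60 at 6 months for 6. At the upper end, a single female of strain 32 at 6 months was among the highest 5 groups for 10 genes, a male of strain 68 at 6 months for 6 and a male of strain 69 at 14 months for 5. In Fos, the B6 male had 6.00 TPM and the strain 22 female 16.3, whereas the strain 32 female had 45.4. These are descriptions of groups that mostly hold 1 mouse.

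Isogenic mice of the same sex and age differed in the family, and strain D2 differed most. The 2 D2 males at 6 months had 9.60 and 38.9 TPM of Fos, and the 3 D2 females at 6 months had 10.5, 37.1 and 29.4. The 3 D2 females at 14 months had 23.2, 44.6 and 21.2 TPM, and the single male at that age had 37.1. In each of the 3 groups with more than 1 mouse, at least 1 mouse was below the lower quartile of all 88 mice (24.8 TPM) and another above the upper quartile (35.7 TPM).

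The same mice were lower in Arc, Egr1 and Npas4 than the other mice of their groups. Arc was 55.4 and 197.3 TPM in the D2 males at 6 months, 59.1, 185.2 and 147.7 in the females at 6 months, and 64.7, 254.3 and 94.4 in the females at 14 months, given in the same order of mice as for Fos. Egr1 was 62.9 and 125.2 TPM in those males, 67.3, 130.8 and 93.1 in the younger females, and 41.3, 145.5 and 43.8 in the older ones. The mice that were low in Fos were also low in Arc and Egr1, 1 in each group at 6 months and 2 of the 3 females at 14 months. Npas4 was also lower in these mice, at 4.82 against 12.9 TPM in the males and at 5.84 and 8.06 against 13.7 in the older females. In the younger females its values were 4.59, 9.05 and 9.32 TPM. The older female lowest in Fos lay above its group mean in 2 of the 9 genes with uncorrected TPM.

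Egr2 had the widest ratio of any isogenic pair, 5.30 between 0.856 and 4.54 TPM in the D2 males. Its lower value was under the 1 TPM of the filter, in the least abundant of the 9 genes, so a small absolute difference gives a large ratio. The widest ratio within a group was 4.05 for Fos and 3.23 for Dusp1 in the D2 males, 3.93 for Arc, 3.52 for Egr1, 3.22 for Nr4a1 and 2.35 for Fosb in the D2 females at 14 months, and 2.04 for Junb in the D2 females at 6 months. For Npas4 it was 2.73, in the females of strain 75 at 14 months. No ratio is given for Egr4, because the zero of corrected values is set by the adjustment. In the middle of the 28 groups the genes were much closer, since the median ratio of the highest to the lowest mouse in TPM was 1.23 (Fosb) to 1.44 (Npas4) across the 9 genes, compared with a median of 1.13 over all 12018 genes.

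The measured depth, the batch adjustment and the summed levels of some lists of other genes in the D2 mice are given beside this. The summed TPM of 9 neuronal markers was 5223 in the D2 male with the lower early gene levels and 5689 in the other. It was 5090, 5218 and 4918 in the younger females and 4596, 5533 and 4744 in the older ones. The summed level of 5 CA1 markers was 305.4 and 393.0 TPM in the males, 352.4, 339.6 and 268.8 in the younger females and 284.7, 331.4 and 206.0 in the older ones. In the males, 6 granule cell markers summed to 216.5 and 161.5 TPM and 6 CA3 markers to 331.6 and 277.8. In the younger females these sums were 154.9, 175.8 and 179.4, and 252.6, 264.3 and 260. In the older females they were 177.8, 169.9 and 177.4, and 284.5, 303.1 and 346.6. Choroid plexus markers (6) summed to 5.2 and 11.9 TPM in the males. Their sum was 14.0, 251.1 and 233.8 in the younger females and 198.2, 9.8 and 316.9 in the older ones. The neuronal sum was highest in the mouse with the highest Fos in all 3 groups, by far less than Fos itself, whereas the CA1 sum was so in 2 of them. In both female groups the other mice had opposite orders in the neuronal sum and in Fos. The part of cell composition in the result was not tested. Total expected counts were 21585242 and 26457526 in the males, 16796611, 40951777 and 9610015 in the younger females and 23934068, 15731341 and 46896813 in the older ones, in the same order. The mouse with the highest Fos was thus the deepest of its group at 6 months in both sexes and the shallowest among the older females. In none of the 3 groups did a low and a high mouse share a ComBat adjustment, the correction for batches that the authors applied to the other table. Of the 2 adjustments, 1 applied to the high male, the high older female and the low younger female, and the other to the remaining mice of these groups. Each adjustment thus held both low and high D2 mice, and the direction in the younger females was opposite to that in the males and the older females. The part of the batches in the differences between D2 mice was not tested. The summed level of 9 glucocorticoid-induced genes was 154.5 and 196.5 TPM in the males, 180.3, 221.4 and 195.1 in the younger females and 151.6, 219.9 and 165.1 in the older ones, and it was highest in the mouse with the highest Fos in each group. The part of a stress response was not tested.

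To place all isogenic mice on 1 scale, each gene's deviation of log2(TPM + 1) from its group mean was divided by its SD over the 65 mice, and the deviations of the 9 genes were averaged. The difference between the highest and the lowest mouse on this scale was 4.80 in D2 males at 6 months, 4.59 in D2 females at 14 months and 4.05 in D2 females at 6 months. The next were 2.46 in strain 51 females at 6 months, 2.42 in strain 75 females at 14 months and 2.20 in strain 100 males at 14 months. Strain D2 held 60.3% of the summed squares with 8 of the 65 mice, and at the other end 2 females of strain 16 at 6 months differed by 0.0737. In 22 of 65 mice all 9 genes lay on the same side of the group mean. In 6 of the 20 groups of 2 mice, 1 mouse had the higher value for all 9 genes, and in 10 for at least 8. Across the 65 mice the mean deviation had a Pearson r of 0.051 with the deviation of log2 total count, as a description.

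**Figure D2:**
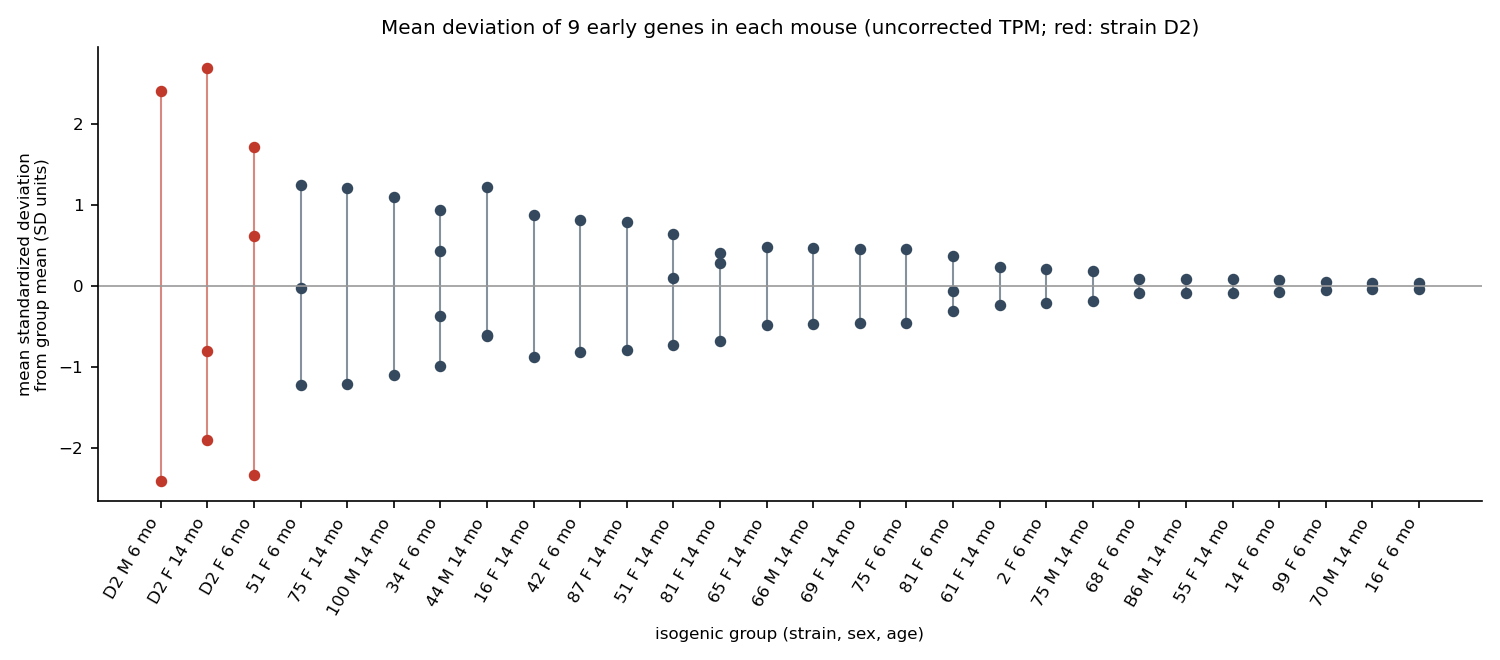
Mean standardized deviation of 9 immediate early genes from the group mean (uncorrected TPM, in SD units) in each of 65 mice, by isogenic group and ordered by range; each point is 1 mouse and lines join the mice of a group. The 3 D2 groups (red) span 4.80, 4.59 and 4.05, and the next widest group spans 2.46.

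The early genes varied more between isogenic mice than most genes did. The within-group SD of log2(TPM + 1) was 0.385 in the median of the 9 genes, compared with 0.197 over all 12018 genes. It was lowest for Junb (0.274, percentile 76.8) and highest for Arc (0.447, percentile 96.6). The biological coefficient of variation that edgeR estimated from the counts was 0.200 (Fosb) to 0.336 (Egr2), compared with a median of 0.115, at percentiles 86.6 to 97.4. Without strain D2 the median SD of the 9 genes was 0.271 against 0.199 for all genes, at percentiles 58.8 (Junb) to 88.0 (Npas4).

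The corrected values gave a median SD of 0.49 over 10 genes against 0.183 over 15358 genes. This scale is wider for some genes by its making. Between mice of 1 group to which the same ComBat adjustment applied, corrected TPM differed by 1.97 or 2.59 times the uncorrected difference for Fos, depending on the adjustment. The factors were 2.43 or 3.76 for Npas4, 2.06 or 2.35 for Fosb and 1.66 or 1.83 for Egr2, and 1.02 to 1.27 for the other 5 genes. Corrected Fos fell below 0 in 6 mice, the lowest at -14.2, and corrected Npas4 in 13 mice, and such values were set to 0 before the logarithm.

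The share of variance between groups depended on strain D2, on age and on the scale. The intraclass correlation, the share of variance between isogenic groups, had a median of 0.0169 for corrected values over the 10 genes, from -0.12 (Junb) to 0.18 (Egr4), compared with 0.0715 over all genes. For uncorrected TPM it was -0.040, compared with 0.0106. On log2 CPM (counts scaled to library size) the order was the opposite, with 0.0853 for the 9 genes and 0.0429 over all genes. Without strain D2 the uncorrected median was 0.276, from 0.099 (Junb) to 0.408 (Egr2), compared with 0.0155 over all genes, and the corrected median was 0.238. At 6 months alone the corrected median was -0.192, compared with 0.00883 over all genes, and at 14 months alone it was 0.125, compared with 0.183. On uncorrected TPM it was -0.176 against -0.058 at 6 months and 0.166 against 0.168 at 14 months. At 14 months alone Fos had 0.567 and Fosb 0.506 on corrected values, and 0.279 and 0.369 on uncorrected TPM. At 6 months alone they had -0.399 and -0.478 on corrected values, and -0.250 and -0.406 on uncorrected TPM. Leaving out D2 was chosen after its values were seen and removes the 3 most variable groups, so it lowers the within-group spread by construction.

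**Figure D3:**
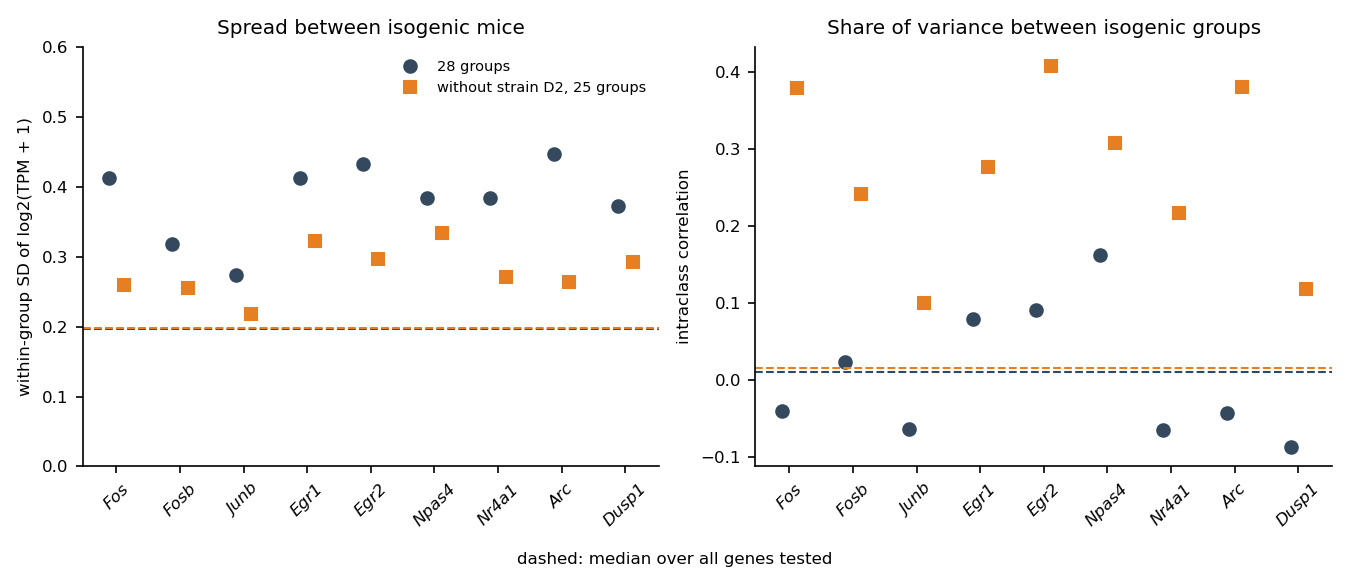
Within-group SD of log2(TPM + 1) (left) and intraclass correlation (right) of 9 immediate early genes, over 28 isogenic groups (circles) and without strain D2 (squares), with dashed lines for the median of all genes tested. With all groups the SDs lie above the median of all genes (0.197), and without D2 all 9 intraclass correlations lie above 0.099.

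Whether strain groups differed by more than their isogenic mice was tested on the counts of single mice, within sex and age. The edgeR quasi-likelihood test called 2.40% of 12018 genes and 0 of the 9 early genes. Fos came closest (F = 1.77, edgeR adjusted p = 0.332), and it alone had an unadjusted p under 0.05, as did 12.3% of all genes. DESeq2 was not run for this test, and limma on corrected values called none of the 10 genes. Without strain D2, edgeR called 344 genes (2.86%), and Fos (adjusted p = 0.000287), Egr2 (adjusted p = 0.0131) and Fosb (adjusted p = 0.0465) fell below the threshold. D2 was chosen for its wide within-group spread in these same genes, which lowers the residual spread of the test, so these values are a description and not evidence of a strain difference. The remaining 6 then had adjusted p of 0.114 (Arc) to 0.672 (Junb) in edgeR. Leaving out single mice of strains D2 and 75 in turn, Fos passed the edgeR test once, without the D2 male at 6 months that had 38.9 TPM (adjusted p = 0.0268, with 2.42% of all genes called), and no other early gene did.

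Age had no detectable effect on the level of any member. Fos had 6.00 TPM in the lowest, 29.3 in the median and 46.3 in the highest of the 38 mice at 6 months, and 15.9, 31.1 and 48.8 in the 50 mice at 14 months. The groups overlapped almost entirely, apart from the lowest mice at 6 months. Over the 51 group averages, with sex in the model, edgeR called 2885 of 12018 genes with age (24.0%), 14.2% higher and 9.77% lower at 14 months, and 0 of the 9 early genes. None of the 9 had an unadjusted p under 0.05 in edgeR, compared with 35.2% of all genes, and DESeq2 and limma called none either. The log2 fold change of 14 against 6 months was 0.15 ± 0.126 (SE) for Fos (edgeR adjusted p = 0.407), 0.14 ± 0.090 for Fosb (edgeR adjusted p = 0.260) and 0.19 ± 0.150 for Egr2 (edgeR adjusted p = 0.389). It was 0.05 ± 0.073 for Junb and -0.07 ± 0.097 for Egr1, and within 0.02 of 0 for Arc, Npas4, Nr4a1 and Dusp1. Some of these estimates depended on the scale. In limma on uncorrected TPM, Fos and Fosb had 0.27 ± 0.130 and 0.21 ± 0.094, with an unadjusted p under 0.05 (limma adjusted p = 0.151 and 0.104). On corrected TPM, Npas4 had -0.56 ± 0.337 (limma adjusted p = 0.262). The median over the 9 genes was -0.0029, and over all genes tested -0.0157. In 77 fits that left out 1 strain or 1 group no early gene was called, although the difference ranged from 0.067 to 0.251 for Fos, 0.082 to 0.221 for Fosb, 0.088 to 0.277 for Egr2, 0.0048 to 0.090 for Junb and -0.128 to -0.024 for Egr1, and the lowest adjusted p was 0.0758 (Fosb without strain 75, edgeR).

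Markers of several cell types were called with age over the same groups, in the same edgeR test. Of 12 microglial markers, 11 were higher at 14 months and none lower, and their summed level was 1124 to 3402 TPM (median 2230) at 6 months and 2178 to 4562 (median 2978) at 14 months. Of 9 neuronal markers tested, 4 were lower, and their sum was 3110 to 5913 TPM (median 5146) at 6 months and 4160 to 5533 (median 4820) at 14 months. Of 5 CA1 markers tested 3 were lower, Fibcd1 by 0.26, Mpped1 by 0.20 and Man1a by 0.18 on the log2 scale, and of 6 granule cell and 6 CA3 markers 1 each was lower. Of 10 astrocyte markers 7 were higher, as were 5 of 9 oligodendrocyte markers and 1 of 8 endothelial markers, and none of 6 choroid plexus and 2 red blood cell markers was called. The part of cell composition in the early gene levels at either age was not tested.

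Sex had no detectable effect on these genes either. In edgeR, Arc differed most, by a log2 fold change of 0.19 ± 0.103 (SE) in males against females (edgeR adjusted p = 0.387). On corrected TPM it was Npas4, at 0.65 ± 0.343 (limma adjusted p = 0.408). edgeR called 117 genes with sex (0.974%) and 0 of the 9, none of which had an unadjusted p under 0.05 (14.5% of all genes did), and DESeq2 and limma called none of them. The lowest edgeR adjusted p for Arc when 1 strain or group was left out was 0.0888, without strain B6.

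The age difference pointed upward in males for each of the 9 genes, on the basis of few young males. In males Dusp1 was 8.83, 19.3 and 31.6 TPM in the lowest, median and highest of 6 mice at 6 months and 20.1, 25.003 and 36.7 in 21 mice at 14 months. In females it was 14.0, 26.4 and 37.1 TPM in 32 mice and 11.7, 24.2 and 37.4 in 29. The lower 3 of the 6 young males were below all older males, and the females overlapped throughout. Over the group averages the log2 fold change of age was 0.41 ± 0.162 (SE) for Dusp1 in males (edgeR adjusted p = 0.119) and -0.19 ± 0.107 in females (edgeR adjusted p = 0.266).

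Across the 9 genes the age difference was 0.19 (Npas4) to 0.64 (Egr2) in males and -0.20 (Egr1) to 0.10 (Fosb) in females. In males edgeR called 887 genes (7.38%) and in females 1495 (12.4%), with 0 early genes in either. Junb had the smallest adjusted p, 0.0619 in males (edgeR, 0.36 ± 0.122). The test of the difference between the sexes called 0 of 12018 genes in edgeR and in DESeq2, and 2.68% had an unadjusted p under 0.05. The interaction was positive for all 9 genes, from 0.12 (Fosb) to 0.64 (Egr2). Of the 9, 5 were among the genes with an unadjusted p under 0.05, namely Dusp1, Junb, Nr4a1, Egr1 and Egr2, and every edgeR adjusted p was 0.9998. The 9 genes move together, so these are not 9 separate results, and the young males were 5 groups, among them the low B6 and strain 60 males and the D2 pair. When 1 of the 51 groups was left out, the interaction ranged from -0.079 to 0.356 for Fosb, 0.17 to 0.76 for Fos, 0.38 to 1.12 for Egr2, 0.11 to 0.48 for Npas4 and 0.23 to 0.57 for Arc, and it stayed positive for the genes other than Fosb.

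**Figure D4:**
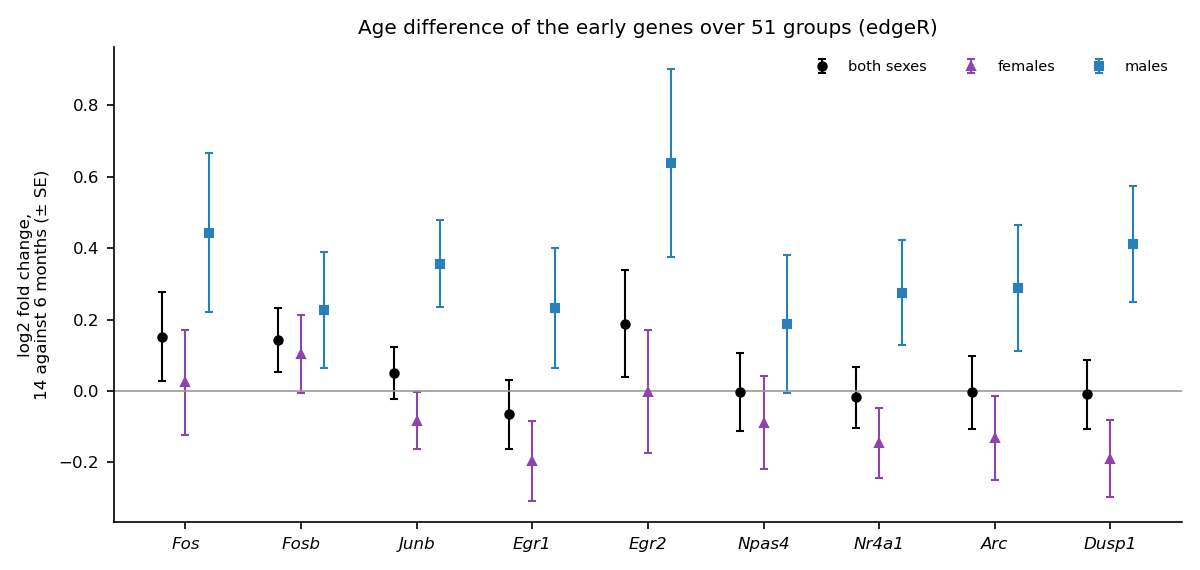
Log2 fold change of 14 against 6 months (± SE) of 9 immediate early genes from edgeR over 51 group averages, for both sexes with sex in the model (circles), females (triangles) and males (squares). Estimates in males lie between 0.19 and 0.64 and those in females between -0.20 and 0.10, and none passed the adjusted threshold.

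Whether the age difference varied between backgrounds was tested in the 15 combinations of strain and sex that were sampled at both ages. edgeR called 4 of 12018 genes (0.0333%) and 0 of the 9. Egr2 and Fos had an unadjusted p under 0.05, as did 7.89% of all genes, with edgeR adjusted p of 0.579 and 0.629. limma on corrected values called none of the 10 genes.

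The members rose and fell together from 1 isogenic mouse to the next. Deviations from the group mean of log2(corrected TPM + 1) were correlated over the 65 mice, and mice were redrawn within their group in 100000 permutations, with adjustment over all pairs of a member with any gene. All 45 pairs of members had a positive r, from 0.307 to 0.959 with a median of 0.706, and 27 of the 45 were called. Of all 153480 pairs of a member with another gene, 0.610% were called with a positive r. Spearman's rho had a median of 0.683 and 32 pairs were called, against 0.745% of all pairs. In uncorrected TPM the 36 pairs had r from 0.557 to 0.952 with a median of 0.803, and 28 were called, against 0.577%.

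Arc and Nr4a1 were the closest pair. Their r was 0.959 (permutation p = 1e-05, the smallest that these permutations can give, adjusted p = 0.0149) on corrected values and 0.952 on uncorrected TPM. The genes lie on the same chromosome, Arc at chr15:74669083-74672570 and Nr4a1 at chr15:101254269-101274795 (GRCm38), far apart. Nr4a1 was also close to Egr1 (r = 0.90), and Arc to Junb (r = 0.875), Egr2 (r = 0.872) and Dusp1 (r = 0.835), over the same 65 mice.

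The correlations among the AP-1 subunits varied with the scale and with 1 mouse. Fos and Fosb had an r of 0.767 (permutation adjusted p = 0.0527) and Fos and Junb 0.574, while Fosb and Junb had 0.412, with permutation adjusted p of 0.268 and 0.359 for these last pairs. In uncorrected TPM the same pairs had r of 0.798, 0.747 and 0.557, of which the first was called (permutation adjusted p = 0.0164). The values of Fos and Fosb rested in part on 1 mouse, a female of strain 34 at 6 months. It had the lowest Fos of its group of 4, with 18.2 TPM against 29.1, 36.4 and 33.5, and the highest Junb, with 137.9 TPM against 82.0, 95.9 and 105.3. Its corrected Fos and Fosb were below 0 and so set to 0, and it had the fewest expected counts of the 4 mice (6574000). Without this mouse the corrected r fell to 0.686 for Fos and Fosb and rose for others, with 0.861 for Fos and Junb, 0.665 for Fosb and Junb, 0.749 for Fos and Npas4 (0.487 with it), 0.654 for Fosb and Npas4 (0.408 with it) and 0.465 for Fos and Egr4. On uncorrected TPM without it, Fos and Junb had 0.901 and Fosb and Junb 0.709. With all mice the lowest pair was Fos with Egr4 (r = 0.307), and Npas4 had an r above 0.70 with Arc alone on corrected values (0.706). In uncorrected TPM Npas4 reached 0.814 with Junb and 0.799 with Arc. The median r with the other members was 0.579 for Npas4 on corrected and 0.719 on uncorrected values, 0.648 and 0.769 for Fosb, and 0.835 and 0.866 for Arc.

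**Figure D5:**
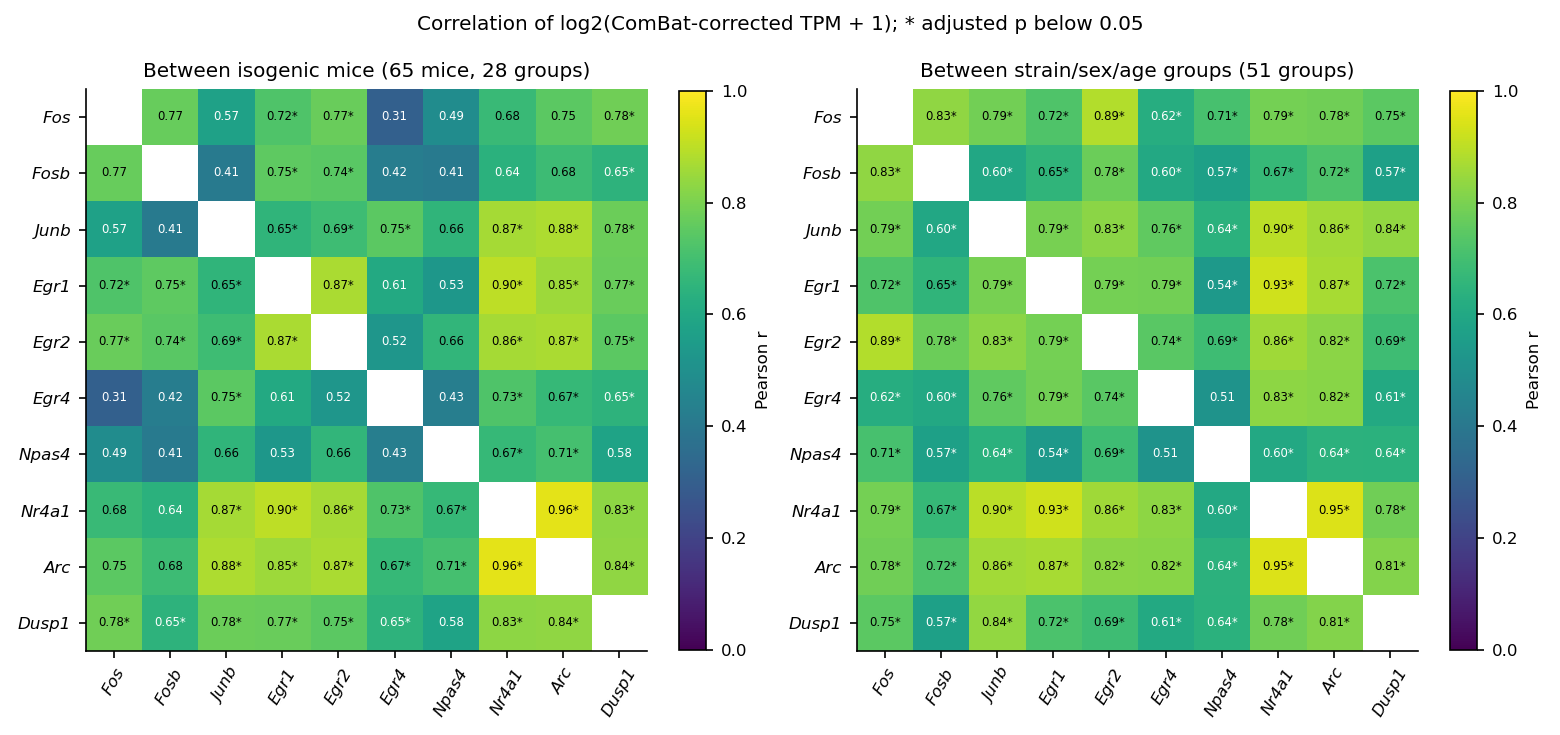
Pearson r of each pair of 10 immediate early genes on log2(ComBat-corrected TPM + 1), between isogenic mice (left, 65 mice in 28 groups, group means removed) and between groups (right, 51 groups, sex and age means removed), where an asterisk marks a permutation adjusted p below 0.05. Arc and Nr4a1 are the closest pair in both panels, at 0.959 and 0.947.

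The median r between isogenic mice was lower without strain D2, which was chosen for its wide spread in these same genes. Leaving it out removes the widest deviations and leaves fewer mice, so these values are a description. Without D2, 57 mice gave a median r of 0.596 on corrected values, and 15 of 45 pairs were called against 0.560% of all pairs. Fosb and Junb then had an r of -0.0068. On uncorrected TPM the median was 0.695, from 0.219 to 0.921, and 15 of 36 pairs were called against 0.408%. Arc and Nr4a1 had 0.932 and 0.921 on these scales. When any single group was left out, the median r on corrected values stayed between 0.672 (without D2 males at 6 months) and 0.761 (without strain 34 females at 6 months), and no pair fell below 0. Without the 2 mice farthest from the median of the first gene of a pair, the median r was 0.750 on corrected and 0.756 on uncorrected values.

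No pair was called within 1 age or 1 ComBat adjustment. Fewer mice were permuted there, and a smallest permutation p of 1e-05 was adjusted over all pairs of a member with any gene. A pair at that smallest p passes only if many pairs reach it, so the lack of calls says little about the strength of coupling. At 6 months alone the median r was 0.729 over 29 mice, and 31 of 45 pairs had an unadjusted permutation p under 0.05. At 14 months alone it was 0.757 over 36 mice, with 43 of 45. Among 35 mice in sets of 1 group to which the same ComBat adjustment applied, uncorrected TPM gave a median of 0.677 (0.803 over all 65 mice), with 30 of 36. In these subsets no pair of a member with any gene was called (0%), members or not.

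Groups differed along the same line. Over the 51 group means, with the means of sex and age removed, the median r of the 45 pairs was 0.756, from 0.512 (Egr4 and Npas4) to 0.947 (Arc and Nr4a1). Redrawing groups within sex and age, 44 of the 45 pairs were called against 0.668% of all pairs, and with Spearman's rho 41 were called against 0.132%. In uncorrected TPM 36 of 36 pairs were called against 0.250%, with a median r of 0.808. Among the members Fos was closest to Egr2 between groups (r = 0.886). Without strain D2 39 of 45 pairs were called against 0.429%. At 14 months alone 26 of 45 were called against 0.0880%, and at 6 months alone, over 21 groups, none was (0%), with 43 of 45 at an unadjusted permutation p under 0.05. A group mean of 1 mouse holds the deviation of that mouse, so this coupling is not separate from that between isogenic mice. The 51 groups came from 26 strain labels, and the redrawing does not account for groups that share a strain.

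The genes that moved most like the family between isogenic mice were ranked by their r with the mean standardized deviation of the 10 members, as a description over 65 mice. The first 10 of 15348 other genes were Csrnp1 (0.795), Trib1 (0.790), Sik1 (0.767), Arl4d (0.764), Slc25a25 (0.761), Per1 (0.760), Kcnf1 (0.689), Sgpp2 (0.687), Plk3 (0.683) and Etv5 (0.676). Sik1 encodes a salt-inducible kinase that acts on the CREB coactivators, Per1 a clock gene that CREB also induces, and Trib1 a pseudokinase. At the opposite end stood Penk, the precursor of enkephalins, with an r of -0.633. On uncorrected TPM, 8 of these 10 were again among the first 10 of 12009 genes, led by Slc25a25 (0.802), and Sgpp2 and Etv5 were replaced by Fezf2 (0.693) and Zfp385a (0.692). The last was then Emid1 (-0.586), followed by Penk (-0.559). For single members the closest gene was another member for Junb, Egr1, Egr2, Arc, Npas4, Nr4a1 and Dusp1 on corrected values. It was Tob2 for Fos (0.819), Fosl2 for Fosb (0.855) and Fam104a for Egr4 (0.760). In uncorrected TPM the closest gene was a member for all 9, Arc for Fos (0.873) and Egr1 for Fosb (0.810).

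Related genes were followed in lists. Of 20 other early response transcription factors, 7 had an r above 0.5 with the members' mean, compared with 1.44% of all other genes, led by Csrnp1, Fosl2 (0.668), Ier2 (0.632) and Btg2 (0.612). Jun (0.161), Atf3 (0.095) and Jund (0.010), which encode AP-1 or related bZIP factors, did not exceed 0.5. Of 20 activity-regulated effectors 7 did, and the neurotrophin gene Bdnf (0.041) and the synaptic pentraxin gene Nptx2 (0.028) did not. Of 10 feedback regulators 4 did, Dusp5 (0.658), Nab2 (0.642), Dusp6 (0.605) and Spry4 (0.563), which encode MAP kinase phosphatases, an EGR corepressor and an inhibitor of receptor tyrosine kinase signalling.

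Of 20 upstream regulators, 1 had an r above 0.5, Srf (0.541), the gene of serum response factor, whereas Creb1 had 0.244. Of 10 glucocorticoid-induced genes 2 did, Cdkn1a (0.567) and Tsc22d3 (0.55), and Fkbp5 (-0.044), Lcn2 (0.085) and Map3k6 (0.106) were among those that did not. Of 10 heat shock genes 1 did, Dnajb1 (0.576). Errfi1 is in both the feedback and the glucocorticoid list. The mean of a list's genes had an r with the members' mean of 0.752 for the transcription factors, 0.717 for the effectors, 0.615 for the feedback regulators, 0.461 for the glucocorticoid-induced genes, 0.415 for the heat shock genes and 0.191 for the upstream regulators. Cell type markers gave 0.310 for neurons, 0.349 for CA1, 0.018 for granule cells, -0.181 for CA3, -0.037 for microglia, 0.107 for astrocytes, -0.191 for oligodendrocytes, 0.105 for endothelial cells, -0.145 for choroid plexus and -0.132 for red blood cells. Among the CA1 markers, the r with the early genes was 0.562 for Mpped1 and -0.049 for Fibcd1. The part of cell composition or of stress in the coupling was not tested.

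The same lists were followed with age in the edgeR test over the 51 groups, in which 14.2% of all genes were higher and 9.77% lower at 14 months. Of 18 other early response transcription factors tested, 2 rose, Atf3 by 0.50 and Maff by 0.36 on the log2 scale (edgeR adjusted p = 1.43e-06 and 0.00539), and none fell. Of 19 effectors, Ccn1 (0.48) and Gadd45g (0.14) rose and Plk2 (-0.18) fell. Of 10 feedback regulators, Zfp36, which encodes an mRNA-destabilizing protein, rose (0.32) and Rasd1 fell (-0.30). Of 18 upstream regulators, 1 rose, Rps6ka1 (0.21), and 4 fell, among them the NMDA receptor subunit gene Grin1 (-0.14), Mrtfa (-0.12) and the kinase gene Camk2a (-0.11). Of 9 glucocorticoid-induced genes Lcn2, also an acute phase gene of glia, rose (1.69) and Tsc22d3 fell (-0.20), and of 8 heat shock genes Bag3 rose (0.28).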

How the data were processed

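Hippocampal RNA-seq of 88 mice was analysed from the tables as deposited. According to the methods and the submitters' processing notes, the authors aligned reads (Bowtie 1.1.2, mm10) to a diploid transcriptome of B and D alleles and quantified them with the GBRS pipeline, which shares ambiguous reads between alleles and genes by expectation maximization. The deposited expected counts are estimated reads per gene, not normalized, and were rounded here. The deposited TPM come from that quantification too and carry no batch adjustment. The ComBat-corrected TPM that the authors deposited are scores on a TPM-like scale, adjusted over more samples than these, and can be negative. The corrected table held 202 columns of other samples, which were not used. The labels do not name the batches. Mice to which the same ComBat adjustment applied were recognized from corrected and uncorrected values, which gave 2 adjustments for the 65 mice that could be placed.

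Genes reaching 1 TPM in 50% of mice or more were kept (12018 on counts, and 15358 on corrected values by the same rule). Age, sex and their interaction were tested over 51 averages of strain, sex and age, and strain and age by strain on single mice, with the quasi-likelihood test of edgeR 4.0.16 (TMM) in R 4.3.3. The Benjamini-Hochberg threshold was 0.05 over all genes. Logarithms were log2(value + 1), with negative values set to 0, so fold differences of low genes are understated on that scale. Correlations used 100000 two-sided permutations within groups (coupling between mice) or within sex and age (between groups). The spread between isogenic mice was described without a test. Alternatives were DESeq2 1.42.0, limma 3.58.1, uncorrected TPM, log2 CPM, a pseudocount of 0.1, no filter, each age alone, females only, a block for strain and sex, and strains, groups or mice left out. The procedures were tested on simulated data. The other programs were scipy 1.17.1, numpy 2.4.6, matplotlib 3.10.9 and pandas 2.3.3 under Python 3.11.15.

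The members and lists were chosen with earlier results of these data known. The genes named are the 10 members, each member's closest gene, the 10 other genes most like the members' mean, and in each list up to 4 genes with the smallest adjusted p for age and up to 4 with the highest r. Genes named as exceptions to a list's movement, cell type markers, the genes at the opposite end of the ranking and those named for a change of ranking between scales were chosen after their values were seen. Same-numbered mice of different groups are different animals numbered in accession order, so the numbers pair nothing. The block was the strain and sex combination. Behaviour and genotypes were not analysed.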

Additional observations from a re-analysis of the deposited data

Results flagged for a closer look

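One value stood apart in the only group of 4 isogenic mice, the females of strain 34 at 6 months. Corrected TPM of Nr4a1 was 50.4 in 1 mouse and 84.1, 84.3 and 80.5 in the others, and the gap of the lowest to the next made up 0.890 of the range, above Dixon's 95% critical value for 4 samples. In uncorrected TPM the mice had 52.3, 84.4, 90.0 and 81.0, and the ratio was 0.760, below that value. Such a flag arises by chance in about 1 in 20 groups, and 19 gene and scale combinations were examined.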

How the results depend on the processing

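No early gene was called for age, sex, their interaction or age by strain under any alternative run. For strain, Fos, Egr2 and Fosb passed the threshold without strain D2, which was left out for its spread in these genes, and Fos without 1 D2 male, with values in the report, and none under the other alternatives. The share of genes called for age was 24.0% and moved to 11.5% with females only, and to 8.21% and 10.9% within the mice of either ComBat adjustment, which hold fewer mice. It ranged from 16.8% to 31.6% when strains or groups were left out in turn. With strain and sex combination as a replicate block, the pairing that the design allows, it was 27.2%, with no early gene called. For sex it moved from 0.974% to 1.71% with DESeq2 and 0.599% with limma on uncorrected TPM, and ranged from 0.333% to 2.94% when strains or groups were left out. For strain it moved from 2.40% to 3.54% with limma on corrected values and 0.349% at 6 months alone, and ranged from 2.13% to 2.80% when mice of strains D2 and 75 were left out. For age by strain it moved from 0.0333% to 0.0651% with limma and 0.0128% without the filter. For age by sex it stayed at 0 over 51 fits that each left out 1 group.

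Small estimates changed sign, none of them called. For age, females only gave -0.085 for Junb and -0.0037 for Egr2. limma on corrected values gave 0.023 for Arc, 0.014 for Nr4a1 and 0.052 for Dusp1. limma on uncorrected TPM gave 0.026 for Arc, 0.0074 for Nr4a1, 0.051 for Dusp1 and 0.013 for Npas4. Npas4 was 0.015 on single mice, 0.073 with the ComBat adjustment as a covariate and 0.067 in the same mice without it. Within 1 adjustment Arc was 0.071, Npas4 0.148 and Nr4a1 0.022, and within the other Junb was -0.039. Other age estimates shifted without a change of sign, among them Egr1 to -0.202 and Arc to -0.099 with the strain and sex block, Dusp1 to -0.191, Nr4a1 to -0.148 and Arc to -0.134 with females only, and Npas4 to -0.559 and Fos to 0.374 with limma on corrected values. For sex, limma on corrected values gave -0.029 for Fos and 0.0036 for Dusp1. With strains or groups left out, age ranged from -0.069 to 0.056 for Arc, -0.059 to 0.069 for Npas4, -0.072 to 0.036 for Nr4a1 and -0.067 to 0.062 for Dusp1. Sex ranged from -0.070 to 0.110 for Fosb, -0.024 to 0.057 for Junb, -0.124 to 0.078 for Egr2, -0.022 to 0.095 for Nr4a1 and -0.060 to 0.063 for Dusp1, and age by sex from -0.079 to 0.356 for Fosb.

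The median intraclass correlation of 0.0169 became 0.0853 on log2 CPM, -0.192 at 6 months and 0.125 at 14 months, -0.176 and 0.166 for uncorrected TPM at these ages, and 0.238 (corrected) and 0.276 (uncorrected) without strain D2. The 27 pairs called between isogenic mice on corrected values, and the 28 on uncorrected TPM, became 0 at 6 months and at 14 months. Within 1 ComBat adjustment 0 were called on uncorrected TPM. Fewer mice were permuted in these subsets, and the smallest permutation p limits what can be called. Without strain D2 15 were called on either scale, and Fosb and Junb turned to -0.0068 on corrected values only. The median r was 0.672 to 0.761 when groups or mice were left out. The 44 pairs called between groups became 0 at 6 months and 26 at 14 months. The cause of these shifts was not tested. Leaving out strain D2 or single mice, single ages on uncorrected TPM, and the ComBat adjustments were chosen after seeing the data. Only 1 mouse was under 5000000 counts, and it was alone in its group, so leaving it out changed no value between isogenic mice. A strain 99 female at 6 months with 5017500 counts was just above this limit and was kept. The 5 groups of young males and the 23 groups of 1 mouse limit what age and strain comparisons can detect.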
